A study of Homo sapiens with 16 samples.

Results

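AXL, TYRO3 and MERTK are the 3 receptors of the TAM family, and GAS6 and PROS1 (protein S) are their vitamin K-dependent ligands. These 5 genes were chosen by symbol, and all 5 were found among the 34228 genes of the count table. TAM receptors are single-pass receptor tyrosine kinases that bind GAS6 or protein S bridging to phosphatidylserine on dying cells, and they signal through PI3K and AKT, dampen innate immune responses and drive the clearance of apoptotic cells. GAS6 binds all of the receptors, whereas protein S is a ligand of TYRO3 and MERTK and not of AXL, and also acts in blood as a cofactor that limits clotting. In melanoma, AXL is known as a marker of a dedifferentiated, MITF-low state that is often found in cells resistant to BRAF inhibitors.

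RNA-seq counts were used for 8 libraries, 2 in each group, of the human melanoma lines named 451Lu-R and 1205Lu-R. Both are BRAF inhibitor-resistant (BRAFi-R) lines that had been derived by months of culture in rising PLX4032, a BRAF inhibitor, and had been maintained in it. For the 8 libraries used, the treatments listed did not include PLX4032. Each line was treated for 24 h with DMSO, the vehicle, or with 2.5 μM corin. Corin is a bivalent inhibitor of the CoREST complex that targets both its demethylase LSD1 and its deacetylases HDAC1 and HDAC2. Each arm of the comparison between lines was 1 cell line, so a line difference is that between these 2 lines. The study itself describes 451Lu-R as MITF-high and AXL-low and 1205Lu-R as MITF-low and AXL-high, so the AXL levels of the DMSO libraries restate a known property of the lines. A further 8 samples with PLX4032 were not analysed here, since no counts were used for them.

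The libraries held 9516687 to 11797788 estimated counts, and levels are given as CPM, a count scaled to library size, after TMM normalization over the 8 libraries. Nothing in the sources used says whether replicates were separate cultures, so p-values measure only the spread between these samples, which may be technical. A gene was called at a Benjamini-Hochberg adjusted p (FDR) under 0.05 in edgeR's quasi-likelihood test, run over all genes that passed a filter on low counts, and each member passed it in every comparison. Within a line, AXL and GAS6 in 451Lu-R and MERTK in 1205Lu-R passed through their corin libraries alone, and in the comparison of lines with DMSO all 3 passed through 1 line alone. Such a gene had to differ to be tested, so its call there supports nothing, no FDR is given for it, and its values stand as a description. With so few libraries per group, groups said not to overlap describe these libraries and are no test. The labelled cell type was checked against 8 melanocyte markers. Their summed level was 12148 to 13040 CPM over the 451Lu-R libraries and 8.59 to 25.9 CPM over the 1205Lu-R libraries, where TYR and SOX10 had no count.

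The 250 bases before the RefSeq transcription start (GRCh38.p14) are shown for the 3 members that corin raised from at most 3 counts over a group, and for TYRO3, which fell in both lines, because their CpG content differs widely. Capitals mark CpG dinucleotides, and each sequence is written 5′ to 3′ on the strand of its gene. They lie at chr19:41218973-41219222 (plus strand), chr2:111898357-111898606 (plus strand), chr13:113864077-113864326 (minus strand) and chr15:41558962-41559211 (plus strand).
AXL: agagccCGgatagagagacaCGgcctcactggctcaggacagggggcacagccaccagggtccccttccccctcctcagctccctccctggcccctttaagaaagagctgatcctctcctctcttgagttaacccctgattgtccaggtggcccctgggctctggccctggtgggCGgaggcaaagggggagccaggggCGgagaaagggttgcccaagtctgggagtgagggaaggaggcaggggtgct
MERTK: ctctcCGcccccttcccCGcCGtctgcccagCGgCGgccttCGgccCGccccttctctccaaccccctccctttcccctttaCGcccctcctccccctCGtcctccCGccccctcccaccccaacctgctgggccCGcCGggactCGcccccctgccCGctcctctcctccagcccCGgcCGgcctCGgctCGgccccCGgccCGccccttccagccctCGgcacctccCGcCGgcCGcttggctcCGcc
GAS6: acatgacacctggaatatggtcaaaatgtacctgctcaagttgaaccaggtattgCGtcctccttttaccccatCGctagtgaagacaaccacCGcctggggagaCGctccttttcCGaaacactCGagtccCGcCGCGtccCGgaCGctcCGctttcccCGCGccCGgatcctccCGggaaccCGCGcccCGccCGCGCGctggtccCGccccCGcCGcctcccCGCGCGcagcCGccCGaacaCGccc
TYRO3: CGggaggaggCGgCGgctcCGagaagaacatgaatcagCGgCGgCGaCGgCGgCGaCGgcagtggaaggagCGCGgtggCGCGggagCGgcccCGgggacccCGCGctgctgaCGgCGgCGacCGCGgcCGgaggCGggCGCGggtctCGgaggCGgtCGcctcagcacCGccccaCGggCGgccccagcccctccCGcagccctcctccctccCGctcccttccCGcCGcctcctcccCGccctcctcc
The AXL window held 4 CpGs, an observed over expected ratio of 0.16, which lay above 17.5% of 34788 promoter windows of that length. The GAS6 window held 31 CpGs and a ratio of 1.22, above 99.4% of the windows. The ratios of MERTK (25 CpGs, 0.87) and TYRO3 (39 CpGs, 0.98) lay between them, and PROS1 had 9 CpGs and a ratio of 0.44. All 5 members matched an entry of the promoter table. The GC box GGGCGG was found on either strand in every member's window, with 4 matches in MERTK, 3 in GAS6, 3 in TYRO3, 2 in AXL and 2 in PROS1, and in 42.6% of all windows. The E-box CANNTG was found in the AXL and GAS6 windows and in 61.8% of all windows. The AP-1 letters TGANTCA were found once, in TYRO3 (6.6% of all windows), and the TEAD letters GGAATG in none of the 5 (11.9% of all windows). These are matches of letters, and no overlap between motifs was counted.

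AXL, whose kinase signals for survival and invasion, rose with corin in 451Lu-R but was lower after it in 1205Lu-R. The gene (ENSG00000167601.12) lies at chr19:41219223-41261766 on the plus strand of GRCh38. In 451Lu-R, 2 and 0 counts (0.212 and 0 CPM) with DMSO became 29 and 23 counts (2.57 and 2.42 CPM) with corin. The level with corin was still low. The ratio of the summed counts was 26.7, with an exact 95% interval of 7.03 to 226 that covers counting error only. The fitted log2 fold change, 4.55 (SE 1.06), depended on single counts: it was 7.68 without DMSO replicate 1 and 3.71 without DMSO replicate 2. In these bulk samples, fewer cells that express a gene and less RNA per cell cannot be told apart.

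In 1205Lu-R, AXL stood at 985 and 1012 CPM with DMSO and at 469 and 460 CPM with corin. Both corin libraries lay far below both DMSO libraries. The fall was 2.13-fold (log2 fold change -1.09, SE 0.03, FDR = 1.47e-19 in edgeR). The difference between the responses of the lines, 1205Lu-R minus 451Lu-R, was -5.68 on the log2 scale (SE 1.24, FDR = 2.63e-07 in edgeR), and it ranged from -8.82 without 451Lu-R DMSO replicate 1 to -4.85 without 451Lu-R DMSO replicate 2. The lncRNA that overlaps 67 exon bases of AXL on the other strand had at most 1 count in any library.

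**Figure D1:**
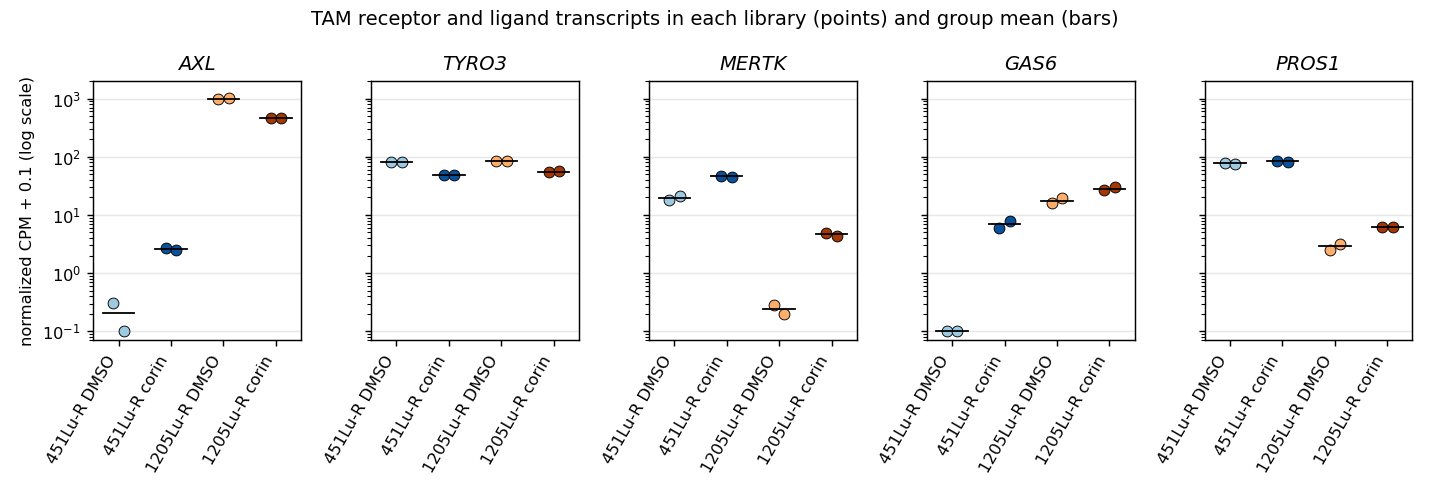
Normalized CPM + 0.1 (log axis) of each gene in the 8 libraries; points are libraries and bars are group means. AXL and GAS6 are at or near 0 in 451Lu-R with DMSO and MERTK is near 0 in 1205Lu-R with DMSO; all 3 are higher with corin in those lines.

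TYRO3, the family member best known from the nervous system and also expressed by melanocytic cells, fell by a similar amount in both lines. The gene (ENSG00000092445.12) lies at chr15:41557675-41583589 on the plus strand. In 451Lu-R it stood at 81.1 and 82.7 CPM with DMSO and at 49.4 and 48.4 CPM with corin. This was a 1.70-fold fall (log2 fold change -0.77, SE 0.06, FDR = 1.43e-10 in edgeR), with no overlap of the groups. In 1205Lu-R the values were 86.1 and 83.6 CPM with DMSO and 53.7 and 56.7 CPM with corin. There too the groups were apart, and the fall was 1.52-fold (log2 fold change -0.60, SE 0.06, FDR = 5.38e-10 in edgeR). The difference between the responses was 0.13 on the log2 scale, with a 95% interval of -0.05 to 0.31 (FDR = 0.174 in edgeR), and so it did not pass the test. It did pass, at 0.34, when only library size was used for scaling, which also moved the median of all genes to 0.20 from -0.01. The pseudogene TYRO3P, a near copy that could take reads, had at most 3 counts in any library.

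MERTK, the receptor by which macrophages and retinal pigment epithelium engulf dying cells and shed membranes, rose in both lines. The gene (ENSG00000153208.17 in the count table) lies at chr2:111898607-112029561 on the plus strand. In 451Lu-R it stood at 17.8 and 21.2 CPM with DMSO and at 46.9 and 45.4 CPM with corin. The groups did not overlap, and the rise was 2.34-fold (log2 fold change 1.23, SE 0.09, FDR = 7.8e-11 in edgeR). In 1205Lu-R, 2 and 1 counts with DMSO became 47 and 49 counts with corin, or 4.82 and 4.30 CPM. The ratio of the summed counts was 31.6, with an exact 95% interval of 10.5 to 156 for counting error. The log2 response was higher in 1205Lu-R by 3.62 (SE 0.85, FDR = 2.67e-06 in edgeR), although the level reached with corin was higher in 451Lu-R.

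Because MERTK is also a macrophage gene, the levels of 8 macrophage and leukocyte markers were set beside it. Their sum was 2.28 to 3.91 CPM in 451Lu-R with DMSO and 10.8 to 11.1 CPM with corin, and AIF1 and CD163 were at 0 or not listed in both groups. In 1205Lu-R the sum was 1.70 to 2.65 CPM with DMSO and 6.63 to 6.78 CPM with corin, with AIF1 at 0 or not listed in both groups. All 4 markers that could be tested in 451Lu-R rose, where 41.3% of all genes were called higher, and so did the 1 in 1205Lu-R (40.4%). Among them was CSF1R, the macrophage colony-stimulating factor receptor, which went from 0 and 0 to 2.64 and 3.21 CPM in 451Lu-R. CSF1R, CD14 and MRC1 were tested there through their corin libraries alone, so their rise was fixed by the filter. Only the call of LYZ was free in 451Lu-R, from 1.66 and 3.22 to 5.15 and 3.76 CPM (FDR = 0.0119 in edgeR). PTPRC, a leukocyte marker, had at most 0.264 CPM in any library. The part of these markers in the MERTK result was not tested.

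Of the 3 receptors, AXL and MERTK were called higher with corin in 451Lu-R, where 41.3% of 14530 genes were called higher, and TYRO3 was called lower, as were 38.6% of genes. In 1205Lu-R, MERTK was called higher (40.4% of 14563 genes) and AXL and TYRO3 were called lower (37.8%). The calls of AXL in 451Lu-R and MERTK in 1205Lu-R are among those that the filter fixed. Calls were thus frequent over the whole transcriptome. The median absolute log2 fold change over all genes tested was 0.69 in 451Lu-R and 0.63 in 1205Lu-R. TYRO3 was near those values, and AXL and MERTK were above them in both lines.

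GAS6, the ligand of all TAM receptors, rose in both lines, in 451Lu-R from no count at all. The gene (ENSG00000183087.15) lies at chr13:113820549-113864076 on the minus strand. In 451Lu-R, 0 and 0 counts with DMSO became 67 and 74 counts with corin, which were 5.90 and 7.66 CPM. Set against a floor of 3 counts over the DMSO group, GAS6 was at least 48.3-fold higher with corin. In 1205Lu-R, 170 and 196 counts (15.97 and 19.1 CPM) with DMSO became 259 and 337 counts (26.6 and 29.6 CPM) with corin. The groups were again apart, and the rise was 1.62-fold (log2 fold change 0.70, SE 0.11, FDR = 2.39e-06 in edgeR). On the log2 scale the response in 451Lu-R was larger by at least 4.89 against that floor. This takes the 1205Lu-R change at its fitted value, without its error. The test of the difference had an FDR of 1.11e-08 in edgeR.

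GAS6-AS1, an antisense RNA, shares 421 exon bases with GAS6, and the strand setting of the counting was not given in the sources used here, so reads of the pair cannot be told apart there. The 451Lu-R libraries held 0 and 0 counts of GAS6-AS1 with DMSO, and corin gave 1 and 1. In 1205Lu-R there were 43 and 33 counts with DMSO, against 66 and 95.6 after corin (log2 fold change 1.09, SE 0.21, FDR = 5.03e-05 in edgeR). GAS6-DT, a divergent transcript of the GAS6 promoter, rose in both lines. In 451Lu-R its level went from 0.295 and 0.198 CPM to 1.58 and 1.66 CPM (log2 fold change 2.72, from at most 3 counts in a DMSO library), and in 1205Lu-R from 1.64 and 1.17 CPM to 4.45 and 4.49 CPM (log2 fold change 1.69, FDR = 2.11e-05 in edgeR).

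Fibroblasts express AXL and GAS6 as well, and fibroblast markers moved in 451Lu-R. The sum of 7 such markers was 48.2 to 51.8 CPM with DMSO and 161 to 164 CPM with corin, with COL3A1 at 0 in both groups. LUM carried most of the DMSO sum (47.0 and 43.2 CPM). Of the 7 markers, 5 could be tested and all 5 rose, where 41.3% of all genes were called higher. Among them was COL1A1, from 0.526 and 0.688 to 40.6 and 43.1 CPM. COL1A1, COL1A2 and DCN were tested through their corin libraries alone, so their rise was fixed by the filter. In 1205Lu-R, in which AXL fell and GAS6 rose, the sum was 348 to 351 CPM with DMSO and 182 to 185 CPM with corin. It was carried mostly by PDGFRA and PDGFRB, with COL1A2 and LUM at 0 in both groups. Of the 3 markers tested there, 2 fell (37.8% of all genes) and 1 rose (40.4%). The 1 that rose was COL1A1, from 1.32 and 1.07 to 8.41 and 8.87 CPM (FDR = 5.72e-10 in edgeR). The sum of 7 keratinocyte and endothelial markers was 1.67 to 14.3 CPM over the 451Lu-R libraries and 11.1 to 27.1 CPM over those of 1205Lu-R, higher with corin in both. The part of these cells or genes in the AXL and GAS6 results was not tested.

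PROS1, which encodes protein S, rose in 1205Lu-R and did not pass the test in 451Lu-R. The gene (ENSG00000184500.15 in the count table) lies at chr3:93873051-93980003 on the minus strand. In 451Lu-R it stood at 77.9 and 75.6 CPM with DMSO and at 84.2 and 82.8 CPM with corin. The groups did not overlap, but the log2 fold change was only 0.10, with a 95% interval of -0.02 to 0.21 (FDR = 0.0678 in edgeR). It passed with RLE size factors (0.11, FDR = 0.0406) and with all 8 libraries in 1 edgeR fit (0.12, FDR = 0.0359). In 1205Lu-R, 2.44 and 3.12 CPM with DMSO became 6.15 and 6.15 CPM. This rise was 2.23-fold (log2 fold change 1.16, SE 0.25, FDR = 7.69e-05 in edgeR). The log2 response was higher in 1205Lu-R by 1.02 (SE 0.24, FDR = 0.000128 in edgeR). Its pseudogene PROS2P had at most 1 count in any library.

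**Figure D2:**
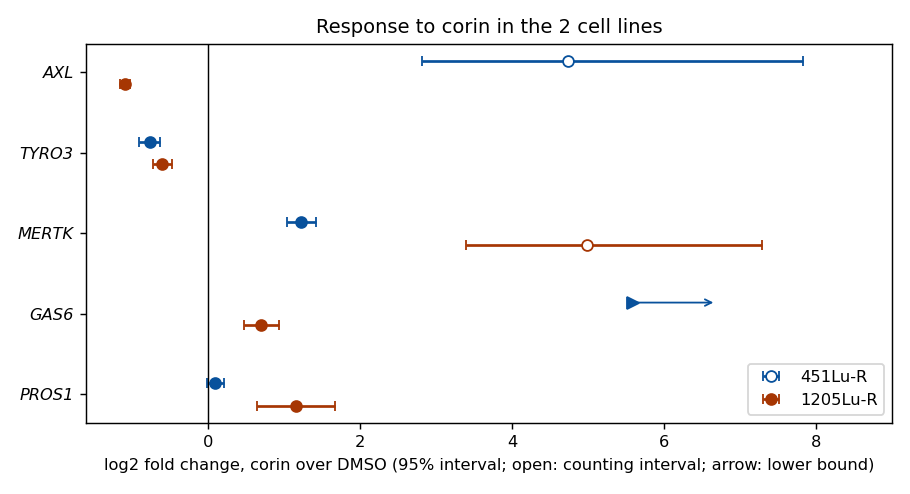
Log2 fold change of corin over DMSO in 451Lu-R (blue) and 1205Lu-R (red) with 95% intervals; open points are ratios of summed counts with exact counting intervals, and the arrow marks a lower bound. AXL lies to the right of 0 in 451Lu-R and at -1.09 in 1205Lu-R, whereas TYRO3 lies left of 0 and MERTK and GAS6 right of 0 in both lines.

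With a fold change of at least 2 required as well, AXL, MERTK and GAS6 were called higher in 451Lu-R, against 22.2% of all genes tested, the filter having fixed the AXL and GAS6 calls, and no member was called lower, against 13.3%. In 1205Lu-R, MERTK and PROS1 passed as higher (22.0% of genes), the filter having fixed the MERTK call, and AXL passed as lower (9.80%). The responses of the lines differed for 4 of the 5 members. The response was higher in 1205Lu-R for MERTK and PROS1 (22.6% of 16062 genes) and lower for AXL and GAS6 (27.1%). TYRO3 was the member whose interval of the difference included 0.

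The lines themselves differed in all members but TYRO3 with DMSO. AXL and GAS6 were higher in 1205Lu-R, as were 41.0% of 14104 genes. MERTK and PROS1 were higher in 451Lu-R, that is lower in 1205Lu-R, as were 41.5%. The filter had fixed the calls of AXL, GAS6 and MERTK, so only that of PROS1 was free. The AXL ratio of 1205Lu-R over 451Lu-R was 10776, with an exact 95% interval of 2983 to 88984 for counting error, since it rests on 2 counts in 451Lu-R. GAS6 was at least 126-fold higher in 1205Lu-R. MERTK was 135 times as high in 451Lu-R (exact interval 45.9 to 658), and PROS1 was 27.9-fold lower in 1205Lu-R (log2 ratio -4.80, SE 0.20, FDR = 1.48e-22 in edgeR). For TYRO3 the log2 ratio was 0.03, with a 95% interval of -0.08 to 0.14 (FDR = 0.537 in edgeR). The fitted log2 ratio of AXL, 13.21, was 16.33 without 451Lu-R DMSO replicate 1 and 12.37 without 451Lu-R DMSO replicate 2.

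With corin, 3 members were higher in 1205Lu-R (39.0% of 15363 genes) and 2 were lower (40.2%). AXL was 186-fold higher in 1205Lu-R (log2 ratio 7.54, SE 0.20, FDR = 1.81e-23 in edgeR), and GAS6 was higher by 2.07 on the log2 scale (SE 0.14, FDR = 3.48e-11 in edgeR). MERTK was 10.2-fold lower (log2 ratio -3.35, SE 0.16, FDR = 1.3e-15 in edgeR) and PROS1 13.6-fold lower (log2 ratio -3.76, SE 0.14, FDR = 1.36e-17 in edgeR). Set beside the DMSO ratios, these gaps were narrower for each of those genes, as the tests of the difference in response already gave. TYRO3 was 1.13-fold higher in 1205Lu-R with corin (log2 ratio 0.17, SE 0.07, FDR = 0.0159 in edgeR), a call that was lost in DESeq2 (FDR = 0.154) and without any of 3 libraries: 451Lu-R corin replicate 1 (FDR = 0.0503), 451Lu-R corin replicate 2 (FDR = 0.0871) and 1205Lu-R corin replicate 2 (FDR = 0.107).

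**Figure D3:**
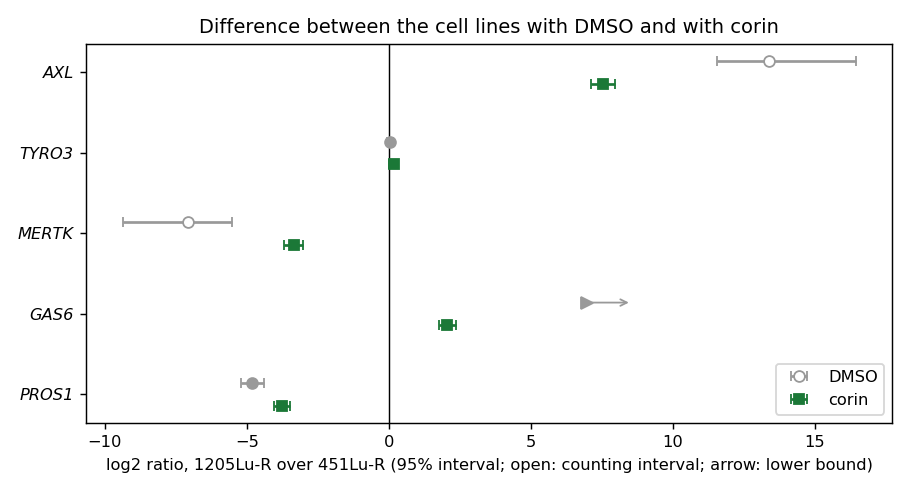
Log2 ratio of 1205Lu-R over 451Lu-R with DMSO (gray circles) and with corin (green squares) with 95% intervals; open points are ratios of summed counts with exact counting intervals, and the arrow marks a lower bound. TYRO3 sits near 0 in both conditions, and the other 4 genes sit closer to 0 with corin than with DMSO.

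Levels were compared between genes as CPM per kilobase of exon. In 451Lu-R with DMSO, TYRO3 (7.61, SD 0.11, n = 2) was the leading receptor, followed by MERTK (4.72, SD 0.59), while AXL (0.0206, SD 0.0292) was near 0. PROS1 (14.6, SD 0.31) was above all of them, and AXL and GAS6 (0) were not apart beyond their spread. With corin, MERTK (11.2, SD 0.25) was above TYRO3 (4.54, SD 0.06), so the order of these receptors was turned. PROS1 (15.8, SD 0.19) still led, and GAS6 (1.13, SD 0.21) and AXL (0.485, SD 0.02) followed.

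Among the receptors of 451Lu-R, TYRO3 made up 63.4% and 59.9% of their summed level per kilobase with DMSO and 27.9% and 28.2% with corin. MERTK went from 36.2% and 40.1% to 69.1% and 68.9%, and AXL from 0.348% and 0% to 3.04% and 2.95%. The MERTK and TYRO3 shares did not overlap between groups. The summed level of the receptors per kilobase came to 11.9 and 12.8 in the DMSO libraries and to 16.4 and 15.96 in the corin libraries.

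In 1205Lu-R, AXL per kilobase (195, SD 3.65, n = 2) was far above TYRO3 (7.88, SD 0.16), GAS6 (2.92, SD 0.37), PROS1 (0.528, SD 0.09) and MERTK (0.0345, SD 0.02) with DMSO. It made up 96.0% and 96.2% of the receptor sum. With corin its share was 93.7% and 93.4%, although its level per kilobase had gone to 90.4 (SD 1.18). The order of the genes was the same, but PROS1 (1.17) and MERTK (1.104, SD 0.09) differed by less than the spread of MERTK. The receptor sum per kilobase fell from 200 and 205 to 97.4 and 95.9, with no overlap. MERTK rose from 0.0227% and 0.0115% to 1.20% and 1.09% of it.

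The ligand side of the lines was opposite. PROS1 was the only ligand counted in 451Lu-R with DMSO, and GAS6 came to 5.78% and 7.50% of the ligand sum per kilobase with corin. In 1205Lu-R, GAS6 made up 85.1% and 84.3% in the DMSO libraries and 79.1% and 80.8% in the corin libraries. GAS6 remained the larger share in 1205Lu-R in both conditions. The shares depend on the gene length used, and lengths of the longest transcript gave other values that keep this order.

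**Figure D4:**
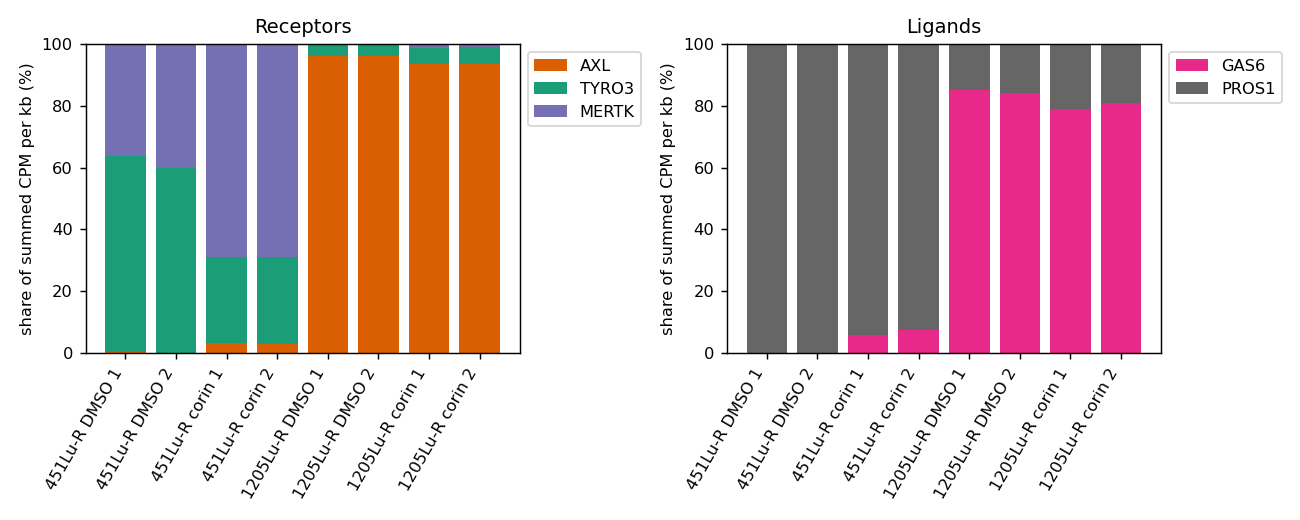
Share of each receptor (left) and ligand (right) in the summed CPM per kilobase, in percent, for each of the 8 libraries. In 451Lu-R the leading receptor is TYRO3 with DMSO and MERTK with corin, in 1205Lu-R it is AXL in both; the leading ligand is PROS1 in 451Lu-R and GAS6 in 1205Lu-R.

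Among 58 receptor tyrosine kinases, AXL ranked 1st per kilobase in 1205Lu-R in both conditions, at 39.4% of the family sum with DMSO and 21.0% with corin. EPHA2, an ephrin receptor, ranked 2nd in both, at 66.0 (SD 0.18) and 71.0 (SD 1.27) CPM per kilobase, and the 3rd place was held by EPHB4 with DMSO and by MET with corin. In 451Lu-R, AXL ranked 41st in both conditions despite its rise. There EPHA3 led with DMSO (61.3, SD 1.06), ahead of MET and ERBB3, and FGFR4 led with corin (21.7, SD 0.08), ahead of EPHA3 and MET. TYRO3 went from rank 6 to 14 in 451Lu-R and from 13 to 19 in 1205Lu-R. MERTK kept rank 8 in 451Lu-R and went from 36 to 30 in 1205Lu-R.

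Many of the receptors that could be tested were called with corin. In 451Lu-R, 38 of the 49 receptors tested rose and 9 fell, with a median log2 fold change of 2.42 against 0.03 over all genes. In 1205Lu-R, 30 of 42 rose and 10 fell, with a median of 1.34 against 0.03. Over all genes, 41.3% were called higher and 38.6% lower in 451Lu-R. The shares were 40.4% and 37.8% for 1205Lu-R, and the list counts that follow are to be read beside these shares. A receptor at or near 0 in one group enters the test only through the other. These counts and medians thus describe the receptors that passed and not the family. Receptors that rose most included FLT4, EPHA7 and CSF1R in 451Lu-R, each from 0 counts, and ROR2, ERBB4 and KDR in 1205Lu-R. KDR, the main receptor for VEGF, went from 0.470 and 0.878 to 23.7 and 22.1 CPM. All of these were tested through their corin libraries alone, so their rise was fixed by the filter. TYRO3 was among the 9 and the 10 that fell.

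**Figure D5:**
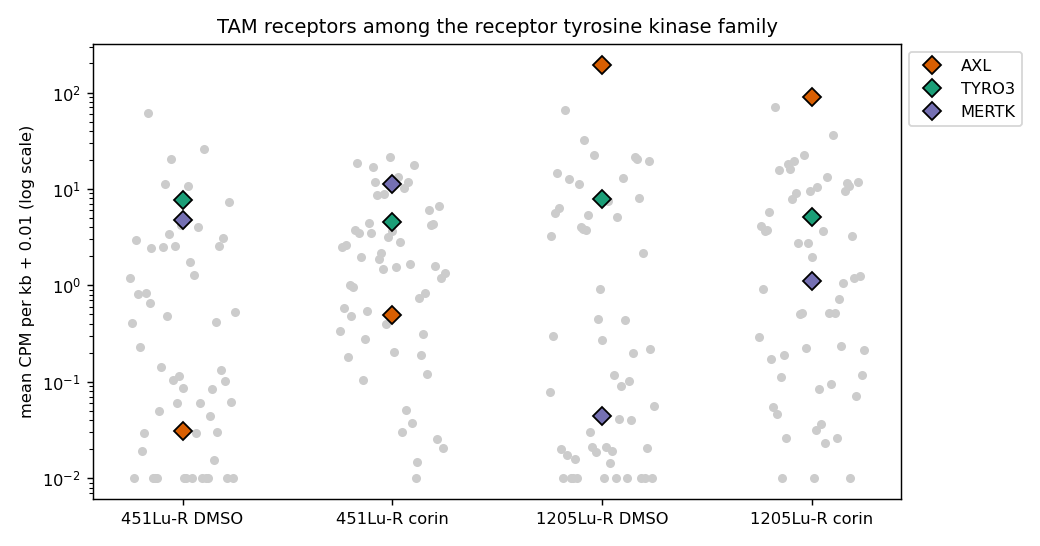
Mean CPM per kilobase + 0.01 (log axis) of the 58 receptor tyrosine kinases in each group; diamonds are the TAM receptors and gray points the other receptors. AXL is the highest point in both 1205Lu-R groups and low in 451Lu-R, and MERTK passes TYRO3 in 451Lu-R with corin.

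TAM ligands need γ-carboxylation, a vitamin K-dependent step, to bind phosphatidylserine. Of 7 genes of that step, 451Lu-R raised 3 and lowered 3, and 1205Lu-R raised 2 and lowered 3, with medians of 0.10 and -0.03. Over all genes 41.3% and 38.6% were called higher and lower in 451Lu-R, while 1205Lu-R had 40.4% and 37.8%. The carboxylase GGCX stood at 85.3 and 90.1 CPM in DMSO-treated 451Lu-R and at 96.3 and 93.8 CPM after corin (log2 fold change 0.10, FDR = 0.0702 in edgeR), and rose in 1205Lu-R from 31.6 and 34.0 to 37.6 and 40.6 CPM (0.27, FDR = 0.00263). VKORC1, the vitamin K epoxide reductase that warfarin blocks, fell in both lines, with log2 fold changes of -0.33 (FDR = 2.02e-05) and -0.47 (FDR = 1.84e-07). NQO1, a quinone reductase, rose 3.38-fold in 451Lu-R (log2 fold change 1.76, SE 0.02) and 2.25-fold in 1205Lu-R (1.17, SE 0.03). AIFM2, a vitamin K reductase, fell in both lines, 2.25-fold in 451Lu-R and with a log2 fold change of -0.31 in 1205Lu-R. GGCX and VKORC1 here, and LGALS3 and the 451Lu-R values of PROCR and TUB in the accounts that follow, were named after their values were seen, as were the values of named genes in their other line.

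Other proteins with a Gla domain, the part that is carboxylated, could be tested in few cases. Of the 12 listed, 9 were in the table. PRRG1, a transmembrane Gla protein, rose in both lines: from 16.6 and 18.9 to 61.5 and 63.3 CPM in 451Lu-R, and from 8.64 and 8.88 to 34.0 and 34.5 CPM in 1205Lu-R. PRRG4 and MGP, the matrix Gla protein, rose in 1205Lu-R as well, so that all 3 tested there rose, whereas 1 of 2 rose in 451Lu-R. MGP was tested in 1205Lu-R through its corin libraries alone.

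Protein S works in clotting control with TFPI and the protein C pathway, and both tested genes of that list rose in 1205Lu-R. They rose from very low levels and were tested there through their corin libraries alone, so their rise was fixed by the filter. PROCR, the endothelial protein C receptor, went from 0.111 and 0.117 to 2.27 and 1.90 CPM, and TFPI from 0.0940 and 0.500 to 2.46 and 3.84 CPM. In 451Lu-R 1 of the 2 rose, PROCR, with a log2 fold change of 0.54. Of the further reported TAM ligands, TUB rose 2.08-fold in 1205Lu-R (FDR = 2.52e-10 in edgeR) and fell slightly in 451Lu-R (log2 fold change -0.14, FDR = 0.0272), and LGALS3, galectin-3, rose in both (0.24 and 0.30).

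The list for shedding and turnover of the receptors also held SOCS1 and SOCS3, which dampen signals, and an inhibitor of shedding. Of its 7 genes, 6 rose and none fell in 451Lu-R, where 41.3% of all genes were called higher. Their median log2 fold change there was 0.58. In 1205Lu-R 4 were higher and 2 lower, near the shares over all genes (40.4% and 37.8%), with a median of 0.998. SOCS3, which dampens cytokine signals downstream of TAM receptors, rose 5.72-fold in 451Lu-R, from 4.82 and 3.83 to 23.6 and 27.3 CPM, and 3.43-fold in 1205Lu-R, from 31.9 and 33.8 to 109 and 114 CPM. SOCS1 rose in both, 13.6-fold from 0.263 and 0.0983 CPM and 2.04-fold from 2.91 and 3.90 CPM. In 451Lu-R it was tested through its corin libraries alone. ADAM17, a protease that sheds MERTK and AXL, rose 2.19-fold in 1205Lu-R and by a log2 fold change of 0.54 in 451Lu-R. TIMP3, an inhibitor of that protease, rose 2.32-fold in 451Lu-R, whereas its log2 fold change was -0.23 in 1205Lu-R.

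Signalling partners of TAM receptors moved both ways: 451Lu-R had 8 of 17 higher and 7 lower, and 1205Lu-R had 7 of 18 higher and 8 lower, with medians of 0.00 and -0.04. VAV3, a Rac exchange factor, rose 3.98-fold and 9.06-fold. VAV1, of the same family, rose 10.99-fold in 451Lu-R from 0.293 and 0.356 CPM and also rose in 1205Lu-R, from 0.0940 and 0 to 1.85 and 1.05 CPM. In both lines VAV1 was tested through its corin libraries alone. TNS2, a focal adhesion protein, fell 5.25-fold in 451Lu-R, from 17.8 and 15.1 to 3.50 and 2.76 CPM, and did not pass the test in 1205Lu-R (FDR = 0.582 in edgeR). AKT1, the kinase below PI3K, fell in both lines, from 114 and 115 to 51.8 and 49.0 CPM in 1205Lu-R and from 202 and 204 to 103 and 96.4 CPM in 451Lu-R.

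Of the other receptors and bridging proteins for phosphatidylserine, 5 of 9 rose and 4 fell in each line, with medians of 0.18 and 0.44. The same 3 genes had the largest changes in both lines. ELMO1, an engulfment adaptor, rose by log2 fold changes of 4.48 and 3.81, to 6.34 and 6.75 CPM in 451Lu-R and 13.5 and 15.8 CPM in 1205Lu-R. EDIL3, a bridging protein, reached 34.2 and 29.9 CPM in 451Lu-R and 4.10 and 3.69 CPM in 1205Lu-R. ADGRB1, an adhesion receptor that binds phosphatidylserine, reached 14.2 and 14.5 CPM and 4.51 and 6.06 CPM. The DMSO values were very low for ELMO1 in 451Lu-R (0.456 and 0.0907 CPM). In 1205Lu-R they were very low for EDIL3 (0.188 and 0 CPM) and ADGRB1 (0.0940 and 0.195 CPM). In those lines these genes were tested through their corin libraries alone.

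Of 20 transcription factors reported at TAM receptor genes, 451Lu-R had 7 higher and 9 lower, and of the 19 tested in 1205Lu-R 5 were higher and 9 lower. TEAD2, a partner of YAP, fell 5.04-fold and 4.51-fold. FOSL1, an AP-1 subunit, fell in 1205Lu-R from 250 and 240 to 72.0 and 74.7 CPM, whereas it did not pass the test in 451Lu-R (FDR = 0.418 in edgeR). YAP1 fell from 183 and 181 to 62.3 and 57.4 CPM in 1205Lu-R and from 113 and 102 to 53.9 and 49.5 CPM in 451Lu-R. JUN rose in both lines, 3.88-fold in 451Lu-R and by a log2 fold change of 0.59 in 1205Lu-R. In 451Lu-R, SOX10 fell from 738 and 706 to 241 and 244 CPM. MITF, the melanocyte regulator, fell 2.58-fold in 451Lu-R and rose 2.08-fold in 1205Lu-R, from 8.36 and 6.54 to 16.1 and 14.7 CPM.

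The genes most like each member were those with the smallest root mean square difference in centred log2(CPM + 1) over the 8 libraries, among 12695 genes. For AXL these were NRP1 (0.40) and IGFBP7 (0.45), against a median of 4.30 over all genes compared. NRP1, a semaphorin and VEGF co-receptor, had group means of 0.0929, 0.906, 864 and 250 CPM in 451Lu-R with DMSO, 451Lu-R with corin, 1205Lu-R with DMSO and 1205Lu-R with corin. TYRO3 was closest to ARAF (0.04) and ANAPC1 (0.04), MERTK to CRTAC1 (0.20) and SESN3 (0.22), GAS6 to BMAL2 (0.21) and CPE (0.21), and PROS1 to EPHA5 (0.18) and CERS4 (0.18). The libraries fall into 4 groups, so such likeness describes the group means.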

How the data were processed

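RNA-seq libraries of 451Lu-R and 1205Lu-R treated with DMSO or corin were analysed, 2 per group. The authors deposited estimated counts per gene, which need not be whole; the submitters' processing notes name Trimmomatic, Salmon and DESeq2, with no version given. Reads had been quantified with Salmon against GENCODE v32 transcripts and summed to genes. Tables of the PLX4032 samples, which hold log2 fold changes and adjusted p-values of the authors' own comparisons, were not used. Counts were rounded to whole numbers. GENCODE 44 names matched 34052 of 34228 gene IDs, and coordinates are those of GENCODE 44 on GRCh38, the build of both annotations.

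Genes were filtered with filterByExpr and tested in R 4.3.3 with edgeR 4.0.16 (TMM, quasi-likelihood F test, Benjamini-Hochberg FDR over all genes tested). Corin was tested within each line and the lines within each treatment, and the difference in response in a fit of all 8 libraries with an interaction term. Standard errors and 95% intervals are Wald values from the fitted model, with the quasi-likelihood dispersion taken as at least 1. The fit was tested on simulated data. Where a group held 1 to 3 counts in all, the ratio of summed counts is given with an exact interval, which covers counting error only. Where it held 0, the ratio is set against 3 counts over the group, which allows for counting error in that group alone. Per-kilobase levels use the union of exons.

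Named genes are the members, their copies and neighbours, for each list up to 3 genes per line with the largest change (FDR under 0.05, 2-fold, mean of at least 1 CPM), the 3 highest receptor tyrosine kinases per group and the 2 genes most like each member; some genes that this rule names are not reported here. Members and lists were chosen with earlier results of these data known, so counts over a list are descriptions. Alternatives were RLE factors, library size only, other filters, all 8 libraries in 1 fit, DESeq2 1.42.0, a replicate block, stricter thresholds, transcript length and leaving out each library.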

Additional observations from a re-analysis of the deposited data

Results flagged for a closer look

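The response to corin differed between the lines, by the interaction term of edgeR (Benjamini-Hochberg adjusted), for 4 of the 5 genes. Over all 16062 genes tested, 22.6% were called higher and 27.1% lower for that term. On the log2 scale, 1205Lu-R minus 451Lu-R, the difference was -5.68 for AXL (FDR = 2.63e-07), 3.62 for MERTK (FDR = 2.67e-06), 1.02 for PROS1 (FDR = 0.000128) and -8.47 for GAS6 (FDR = 1.11e-08). The fitted GAS6 value depends on the prior count, since 451Lu-R with DMSO had no count, and it is no bound; the bound is a difference of at least 4.89. AXL was the gene whose direction differed between the lines: both corin libraries were above both DMSO libraries in 451Lu-R and below both in 1205Lu-R. No group had more than 2 libraries, so no single library could be called an outlier.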

How the results depend on the processing

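Of 290 alternative values of the 25 log2 fold changes of the members, 283 kept their direction and their side of the threshold, 4 lost a call, 3 gained one and 0 turned; the cause was not tested. The 290 values include 11 each for AXL and GAS6 in 451Lu-R, MERTK in 1205Lu-R, and all 3 between the lines with DMSO. The filter fixed those calls in the main fit, so their being kept supports nothing. PROS1 in 451Lu-R was called with RLE size factors (0.11) and with all 8 libraries in 1 fit (0.12). The TYRO3 difference in response was called with library size only (0.34). The TYRO3 line difference with corin was not called in DESeq2 (0.17) and ranged from 0.14 to 0.22 when libraries were left out in turn. Of 10 gene pairs, 9 to 10 kept their per-kilobase order in 451Lu-R with DMSO without single libraries (AXL and GAS6 tied at 0 without replicate 1), and 9 did so in 1205Lu-R with corin by longest transcript length, where GAS6 passed TYRO3.

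Deviations of same-numbered libraries correlated at 0.03 between the groups of 451Lu-R and at -0.06 in 1205Lu-R. Between lines they correlated at 0.17 with DMSO and -0.05 with corin, and across both line and treatment at 0.07 and -0.14. They cannot decide whether the same replicate numbers pair the samples, since counting noise weakens such correlations. With a replicate block the AXL change in 451Lu-R was 4.56 and the count of genes called higher there 5950; the block changed no call of a member.

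By longest transcript length, receptor shares were 66.6% TYRO3 and 33.2% MERTK in 451Lu-R with DMSO, 2.83% AXL, 32.6% TYRO3 and 64.6% MERTK with corin, 95.2% AXL and 4.75% TYRO3 in 1205Lu-R with DMSO, and 92.4% AXL and 6.46% TYRO3 with corin. GAS6 was then 9.53% of ligands in 451Lu-R with corin, and 89.2% and 85.5% in 1205Lu-R with DMSO and corin.

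At an FDR under 0.05 and 2-fold, then at an FDR under 0.001 and 4-fold, genes called higher and lower numbered as follows. With corin in 451Lu-R 3232 and 1935 became 1803 and 395, and in 1205Lu-R 3211 and 1427 became 1650 and 208. For the difference in response 1500 and 1519 became 391 and 502. Between lines, 2759 and 3078 became 1429 and 1493 with DMSO, and 2854 and 3055 became 1298 and 1313 with corin.

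With 2 libraries per group and 0 to 3 counts for AXL, GAS6 or MERTK in a DMSO group, the size of those changes is known only to the intervals or bounds given.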
